A study of Mus musculus with 30 samples.

Results

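The respiratory chain passes electrons to oxygen and uses the energy to make ATP, and the genes described here are the nuclear genes for the subunits of complexes II, III, IV and V. They were taken from the deposited expression table as every row whose symbol begins with Uqcr or Atp5, begins with Cox followed by a digit 4, 5, 6, 7 or 8, or is Sdha, Sdhb, Sdhc, Sdhd or Cyc1. The rule gave 49 of the 13575 genes in the table, and all 49 passed the filter on low values that left 13256 genes for testing. Of the 49, 44 encode subunits: 4 of complex II, 9 of complex III, 16 of complex IV (with Cox7a2l, a supercomplex assembly protein related to subunit 7a) and 15 of complex V. The other 5 met the rule by symbol and are not counted as subunits. They are Cox4nb, the neighbour of Cox4i1 and a subunit of the ER membrane protein complex, Atp5s (factor B, not a core subunit), Atp5sl (an assembly protein), and Atp5l-ps1 and Atp5l2, which are pseudogenes of Atp5l.

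RNA was sequenced from 6 mouse heart libraries, 3 labelled CM-RevDKO and 3 labelled as floxed control, from the tissue of 2-month-old mice collected at ZT10 (10 h after lights on) with the atria trimmed off. CM-RevDKO names a double knockout of the REV-ERB receptors, transcriptional repressors of the circadian clock encoded by Nr1d1 and Nr1d2, made by crossing floxed alleles of both genes to Cre driven by the alpha myosin heavy chain promoter, which is active in cardiomyocytes. Both groups carry the floxed alleles. Whether the RNA controls carry Cre is not given in the labels, so an effect of Cre and of losing the receptors cannot be told apart, and neither sex nor whether the replicates are separate animals is stated for these samples.

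Complex II (succinate dehydrogenase) is encoded wholly in the nucleus and feeds electrons from succinate to ubiquinone. Complex III (ubiquinol-cytochrome c reductase) hands them to cytochrome c, complex IV (cytochrome c oxidase) hands them to oxygen, and complex V (ATP synthase) uses the proton gradient to make ATP, each of these built from nuclear and mitochondrially encoded subunits together. Several complex IV subunits exist in a form typical of heart and skeletal muscle and a form found in most tissues: Cox6a2 and Cox6a1, Cox7a1 and Cox7a2, Cox8b and Cox8a. The c subunit of the ATP synthase rotor is encoded by 3 genes, Atp5g1, Atp5g2 and Atp5g3, whose mature proteins are the same.

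The libraries were compared first as wholes. The values, read as FPKM (fragments scaled to transcript length and to the mapped total of the library), sum to between 702391 and 712158 per library labelled CM-RevDKO and between 678722 and 691212 per control library, and sequencing depth is unknown. Mitochondrially encoded transcripts held 36.9% to 40.9% of the sum in libraries labelled CM-RevDKO and 38.4% to 41.0% in controls. The targeted gene Nr1d1 stood at 55.6, 47.4 and 47.9 FPKM in libraries labelled CM-RevDKO, against 23.9, 22.6 and 15.01 FPKM in controls, a direction opposite to its label; Nr1d2 stood at 28.8, 26.6 and 26.7 FPKM, against 40.3, 30.6 and 36.3 FPKM in controls. Which exons are deleted is not stated, and a gene-level value that takes in exons outside the deletion checks nothing about it, so every direction below rests on the labels. The 8 cardiomyocyte markers were all present, with summed levels of 29367 to 32908 FPKM in libraries labelled CM-RevDKO and 29382 to 31550 FPKM in controls. Within that list Tnnt2 (log2 fold change 0.37) and Myl2 (0.26) had higher values and Pln (-0.49), Myh6 (-0.35) and Tnni3 (-0.21) lower ones in libraries labelled CM-RevDKO, without overlap and none past the test. Libraries labelled CM-RevDKO 1 and 2 stood apart in abundant transcripts: the microRNA entry mmu-mir-689-2 was at 3683 and 1813 FPKM there, against 42294 FPKM in the library labelled CM-RevDKO 3 and 25204 to 33903 FPKM in controls. Library CM-RevDKO 1 also had the highest summed level of 4 tested atrial markers, 694 FPKM, with 184 and 225 FPKM in CM-RevDKO 2 and 3 and 82.1 to 128 FPKM in controls.

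The promoters of 4 members are shown because the expression results below turn on 3 of them and because the fourth, Cox7b, is the single subunit gene whose promoter window holds the ROR core, the element at which REV-ERB receptors compete with the ROR activators. Each sequence is 300 bases of RefSeq on GRCm38.p6 (mm10), from 250 bases before the annotated start to 50 bases from it onward, 5′ to 3′ on the gene's own strand, with motif matches in capitals. Cox7b lies on the plus strand at chrX:106015450-106015749 and holds the D-box TTATGTAA, the kind of site bound by the repressor E4BP4, at -192 and the ROR core TAGGTCA at -25, counted from the annotated start as 0. Atp5k lies on the minus strand at chr5:108434350-108434649 and holds the NRF1 core GCGCATGC at -50 and, on the other strand, at -48, and the ETS core CCGGAAG on the other strand at 12. Cox7a1, on the plus strand at chr7:30183921-30184220, and Cox6b2, on the minus strand at chr7:4753045-4753344, hold none of the 7 motifs searched.
Cox7a1: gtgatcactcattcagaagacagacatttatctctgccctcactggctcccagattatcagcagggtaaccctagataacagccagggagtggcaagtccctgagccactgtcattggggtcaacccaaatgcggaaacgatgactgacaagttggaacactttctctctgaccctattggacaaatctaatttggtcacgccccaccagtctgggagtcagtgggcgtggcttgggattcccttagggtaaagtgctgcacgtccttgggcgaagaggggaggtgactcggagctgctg
Atp5k: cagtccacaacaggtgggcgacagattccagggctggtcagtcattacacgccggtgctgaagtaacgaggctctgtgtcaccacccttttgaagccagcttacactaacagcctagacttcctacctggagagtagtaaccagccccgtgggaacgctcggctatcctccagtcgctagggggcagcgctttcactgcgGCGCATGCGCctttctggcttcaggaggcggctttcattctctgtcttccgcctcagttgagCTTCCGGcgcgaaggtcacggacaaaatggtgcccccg
Cox6b2: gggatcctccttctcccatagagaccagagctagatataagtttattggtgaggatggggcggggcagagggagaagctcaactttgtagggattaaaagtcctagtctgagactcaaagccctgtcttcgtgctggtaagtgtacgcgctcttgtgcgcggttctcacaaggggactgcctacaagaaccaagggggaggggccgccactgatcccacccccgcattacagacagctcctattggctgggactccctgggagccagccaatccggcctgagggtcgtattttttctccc
Cox7b: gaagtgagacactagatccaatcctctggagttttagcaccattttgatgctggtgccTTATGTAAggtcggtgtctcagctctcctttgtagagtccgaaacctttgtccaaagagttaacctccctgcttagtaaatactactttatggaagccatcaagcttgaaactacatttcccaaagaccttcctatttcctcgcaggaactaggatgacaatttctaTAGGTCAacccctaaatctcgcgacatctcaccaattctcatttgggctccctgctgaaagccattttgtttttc
Both strands of every window were searched for 7 motifs, and a palindromic stretch such as the one in Atp5k counts as 1 promoter. RefSeq windows were at hand for 37 promoters of 34 of the 44 subunit genes and for 32851 promoters in all. The ROR core was in 2.70% of the subunit promoters and in 2.61% of all promoters, and the D-box in 2.70% and 0.938%, both from Cox7b alone. The ETS core, bound by GABP, was in 32.4% of subunit promoters (12 of 37) and 8.86% of all. The NRF1 core, whose factor is a known regulator of respiratory chain genes, was in 18.9% (7 of 37) and 2.71% of all. The ERR element TCAAGGTCA was in 5.41% of subunit promoters, those of Atp5g3 and Sdhd, and in 0.423% of all. The clock E-box CACGTG was in 10.8% and 7.15%, and the MEF2 site CTAAAAATA in 0 of 37 and 0.517%. A match is a stretch of letters in a window and not a measured binding site.

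Most members stood slightly higher in libraries labelled CM-RevDKO, none of them past the test, and 1 lowly expressed member, Cox6b2, fell. Of the 49, 40 had a positive log2 fold change (81.6%, with 53.7% among all tested genes), and the median was 0.16, with 0.018 for all genes. Taken against the control mean, the median member stood at 0.16, 0.17 and 0.10 log2 units in libraries labelled CM-RevDKO 1, 2 and 3, and at -0.03, 0.02 and 0.01 in the controls. No member was called higher, where 1.26% of all genes were, and 1 was called lower, where 1.24% of all genes were (limma on log2(FPKM + 1), Benjamini-Hochberg over 13256 genes, threshold 0.05; 2.5% of genes were called in either direction). At an unadjusted p under 0.05 there were 14 members (28.6%), and 16.6% of all genes. The groups did not overlap, with the libraries labelled CM-RevDKO higher, for 21 members (42.9%), where 12.6% of all genes showed that; they did not overlap in the other direction for 3 members (6.12%: Cox6b2, Atp5s and Uqcrc1), where 10.5% of all genes did. Scaling bears on the sign of these small differences: the number of members with a positive change was 38 with median of ratios scaling, 34 when libraries were scaled without the mitochondrially encoded genes and 29 with quantile normalization. These are 77.6%, 69.4% and 59.2% of the 49, where 49.8%, 43.2% and 49.1% of all genes were positive under the same scalings. The 332 calls over all genes split into 167 higher and 165 lower, and into 118 higher and 212 lower when scaled without the mitochondrially encoded genes.

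The members are among the most abundant transcripts of the heart, so other abundant genes were set beside them. Of the 49, 29 averaged 500 FPKM or more, and their median log2 fold change was 0.21; among the 100 other genes at that level the median was 0.13, and 64% of them were positive. At 100 to 500 FPKM the 13 members had a median of 0.14 and the 407 other genes one of 0.13. Groups that did not overlap, with the libraries labelled CM-RevDKO higher, were seen for 12 of the 29 and 8 of the 13 members, and for 32% and 31% of the other genes at those levels. In these bulk libraries fewer cells of a type and less RNA per cell cannot be told apart.

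**Figure D1:**
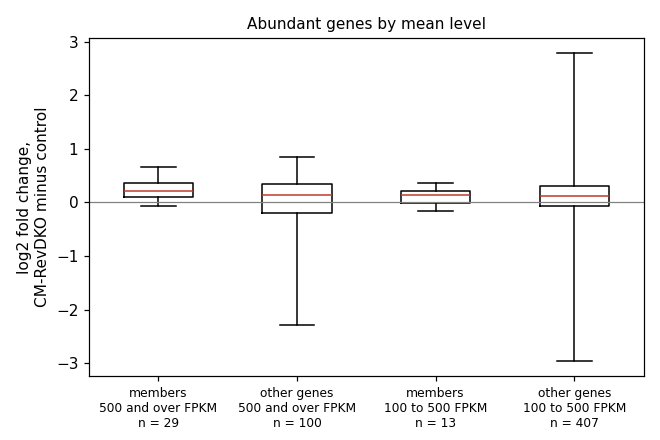
Log2 fold change (CM-RevDKO minus control, from log2(FPKM + 1)) of members and of other genes whose mean was 500 FPKM or more or between 100 and 500 FPKM; boxes span the quartiles, the red line is the median and whiskers reach the extremes. Medians are 0.21 for the 29 members and 0.13 for the 100 other genes in the upper range, and 0.14 for the 13 members and 0.13 for the 407 other genes in the lower one.

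**Figure D2:**
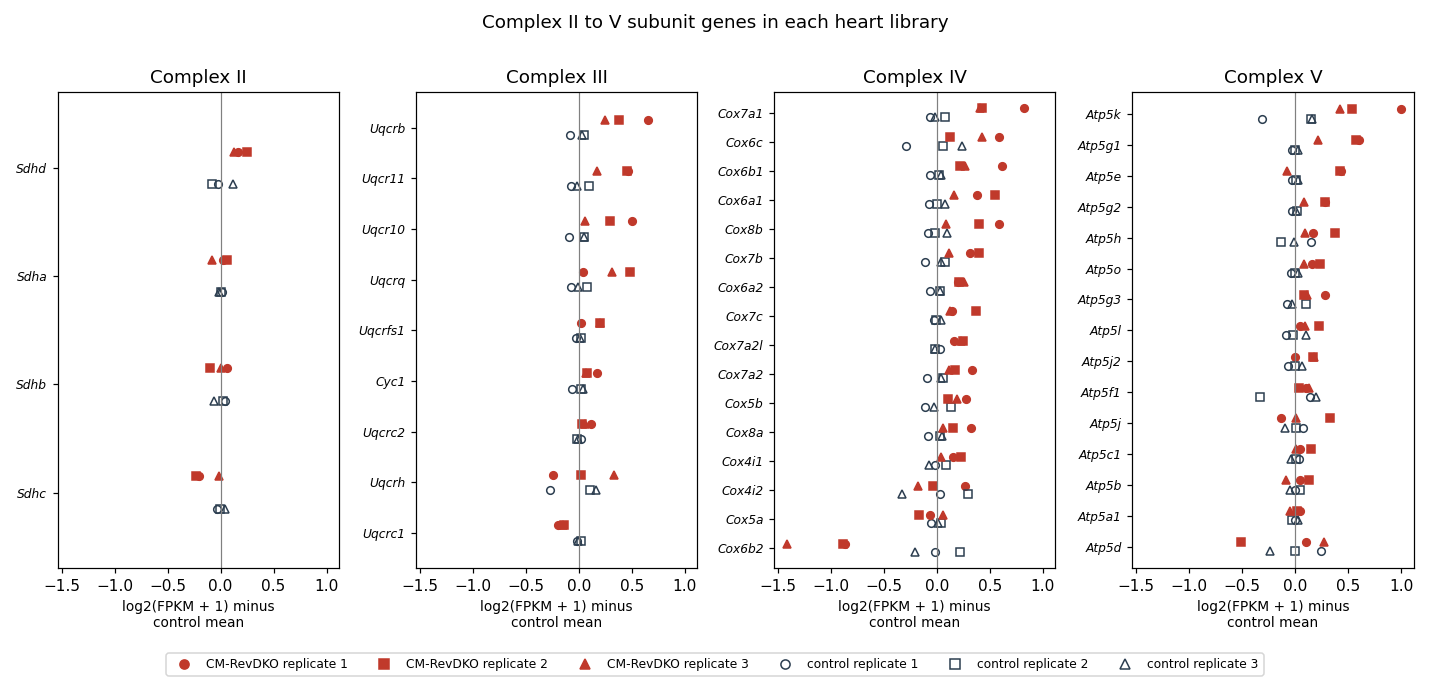
Level of each of the 44 subunit genes in each library, as log2(FPKM + 1) minus the control mean, by complex and ordered by fold change; filled red symbols are libraries labelled CM-RevDKO and open symbols are controls. Complex II genes sit around 0, most genes of complexes III to V sit to the right in the libraries labelled CM-RevDKO, and Cox6b2 lies far to the left.

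Complex II stayed near its control level as a group, with 1 of 4 genes positive and a median log2 fold change of -0.01. Sdhd, a membrane anchor, stood at 291, 308 and 283 FPKM in libraries labelled CM-RevDKO, against 254, 244 and 281 FPKM in controls. Its groups did not overlap, and the difference of 0.18 (SE 0.09) did not pass the test (adjusted p = 0.366). Sdhc, the partner anchor, was at 94.7, 92.9 and 108 FPKM, against 107, 108 and 112 FPKM in controls, which is -0.15 on the log2 scale (SE 0.09, adjusted p = 0.471). The ranges of Sdhc meet, and the anchors thus stood on opposite sides of 0. Sdhb, the iron-sulfur subunit, had 614, 549 and 591 FPKM against 606, 599 and 562 FPKM in controls (-0.01, SE 0.08, adjusted p = 0.967). Sdha, the flavoprotein that oxidises succinate, averaged 423 ± 21.2 FPKM in libraries labelled CM-RevDKO and 424 ± 5.32 FPKM in controls (SD, n = 3 each).

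Within complex III, 8 of 9 genes had a positive change, none of them called, and the median was 0.14; the small subunits had a median of 0.28 and the 4 larger ones (both core proteins, cytochrome c1 and the Rieske protein) one of 0.09. With quantile normalization 4 of 9 were positive and the medians were -0.0041 for complex III, 0.17 for the small subunits and -0.05 for the larger ones. Uqcrb, a small subunit next to the ubiquinone site, stood at 1285, 1065 and 971 FPKM in libraries labelled CM-RevDKO, against 774, 845 and 837 FPKM in controls (0.43 on the log2 scale, SE 0.12, adjusted p = 0.122). Uqcr11 had 1068, 1063 and 868 FPKM, against 735, 825 and 762 FPKM in controls (0.36, SE 0.11, adjusted p = 0.150). Uqcr10 had 908, 788 and 668 FPKM, against 601, 662 and 664 FPKM in controls (0.28, SE 0.12, adjusted p = 0.306). In these small subunits every library labelled CM-RevDKO lay above every control, with CM-RevDKO 3 the closest to the controls. Uqcrc1, a core protein facing the matrix, had the opposite sign. It stood at 423, 442 and 439 FPKM in libraries labelled CM-RevDKO, against 480, 494 and 483 FPKM in controls (-0.16, SE 0.07, adjusted p = 0.340), again without overlap. The other core protein Uqcrc2 averaged 412 FPKM in libraries labelled CM-RevDKO and 394 FPKM in controls. Cytochrome c1 (Cyc1) averaged 546 FPKM in libraries labelled CM-RevDKO and 508 FPKM in controls, and the Rieske protein Uqcrfs1 522 FPKM in the same CM-RevDKO libraries and 472 FPKM in controls. Uqcrq (0.28) overlapped between groups, and so did Uqcrh (0.04), whose reads can be shared with the overlapping pseudogene Gm12854.

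Complex IV had the largest group median of the complexes, 0.21, with 14 of 16 genes positive. On the higher side 9 (56.2%) did not overlap, where 12.6% of all genes and 31% to 32% of other abundant genes showed that. By the same measure complex III had 6 of 9 (66.7%) and complex V 4 of 15 (26.7%). Under each of the 3 other scalings 13 complex IV genes were positive, with medians of 0.14 to 0.19. Cox7a1, the heart form of subunit 7a (chromosome 7, 30184171 to 30186030), was the most abundant subunit gene of the set in every library of both groups. It stood at 3926, 2979 and 2948 FPKM in libraries labelled CM-RevDKO, against 2125, 2349 and 2198 FPKM in controls. That is 0.55 log2 units more (SE 0.13), which missed the threshold (adjusted p = 0.0786). Every library labelled CM-RevDKO lay above every control, and CM-RevDKO 1 was the highest. The form found in most tissues, Cox7a2, had 469, 420 and 405 FPKM, against 349, 387 and 383 FPKM in controls (0.21, SE 0.09, adjusted p = 0.326); it overlaps Tmem30a and the pseudogene Gm51685, so its reads may be shared. Both forms were thus above the controls without overlap, the heart form by more. The pair's sum was 3716 ± 589 FPKM in libraries labelled CM-RevDKO and 2597 ± 132 FPKM in controls (SD, n = 3 each).

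For subunit 6a, Cox6a2, the heart form, had 2326, 2333 and 2415 FPKM in libraries labelled CM-RevDKO, against 1942, 2069 and 2068 FPKM in controls (0.22, SE 0.08, adjusted p = 0.214). Cox6a1, the form of most tissues, had 210, 236 and 181 FPKM, against 154, 161 and 171 FPKM in controls (0.36, SE 0.11, adjusted p = 0.168). Neither form overlapped between groups. For subunit 8, the heart form Cox8b had 2402, 2107 and 1693 FPKM, against 1510, 1574 and 1708 FPKM in controls (0.36, SE 0.14, adjusted p = 0.243). CM-RevDKO 3 lay inside the control range there, while CM-RevDKO 1 and 2 lay above it. Cox8a, its counterpart in most tissues, had 266, 237 and 222 FPKM, against 201, 218 and 220 FPKM in controls (0.18, SE 0.10, adjusted p = 0.414).

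Subunit 4, which binds ATP as a regulator of the enzyme, was almost entirely Cox4i1, at 2343, 2469 and 2168 FPKM in libraries labelled CM-RevDKO and 2088, 2244 and 2010 FPKM in controls (0.14, SE 0.09, adjusted p = 0.497). Cox4i2, the form of lung and of low oxygen, was at 10.3, 8.17 and 7.29 FPKM, against 8.62, 10.5 and 6.50 FPKM in controls. Its log2 fold change was 0.01 (SE 0.18), with the ranges fully mixed and the sign negative under each of the 3 other scalings; it overlaps Bcl2l1 and its reads are uncertain. The supercomplex protein Cox7a2l had a narrow spread, with means of 168 ± 4.94 FPKM in libraries labelled CM-RevDKO and 145 ± 2.97 FPKM in controls (0.21, SE 0.08, adjusted p = 0.225). Cox7b, whose promoter holds the ROR core, had 758, 802 and 659 FPKM, against 564, 640 and 624 FPKM in controls (0.28, SE 0.10, adjusted p = 0.239). Of the rest, Cox6c, Cox7c and Cox5b had log2 fold changes of 0.38, 0.21 and 0.19, and Cox5a one of -0.06.

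Cox6b2 was the single member past the test. It is the testis form of subunit 6b, the cap subunit on the intermembrane side (chromosome 7, 4751792 to 4753094). It stood at 1.53, 1.49 and 0.731 FPKM in libraries labelled CM-RevDKO, against 3.55, 4.38 and 3.01 FPKM in controls. The groups did not overlap, the log2 fold change was -1.06 (SE 0.19, adjusted p = 0.0386), and the mean in libraries labelled CM-RevDKO was 0.343 of the control mean. Its share of the subunit 6b pair was 0.0801% ± 0.0282 in libraries labelled CM-RevDKO and 0.302% ± 0.0574 in controls (SD, n = 3 each), so nearly all subunit 6b transcripts came from Cox6b1. Cox6b1, the form of most tissues, had 1839, 1397 and 1448 FPKM, against 1154, 1223 and 1238 FPKM in controls (0.36, SE 0.12, adjusted p = 0.183), without overlap. The call of Cox6b2 ended with any 1 of the 6 libraries left out (adjusted p of 0.0551 to 0.128), and the sign was negative in every such fit.

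**Figure D3:**
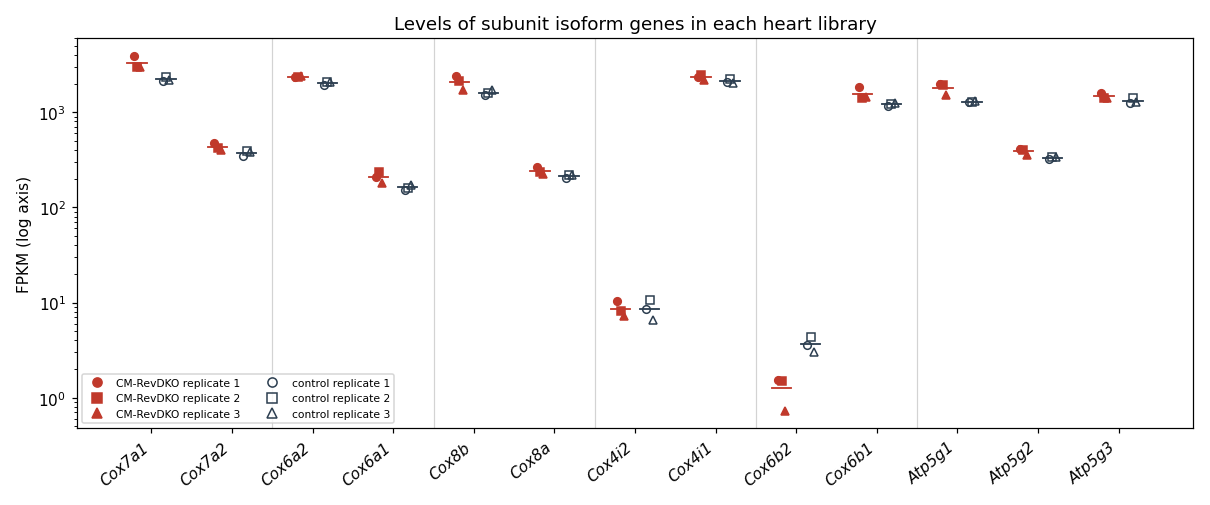
FPKM (log axis) of the isoform genes of subunits 7a, 6a, 8, 4, 6b and c in each library, with libraries labelled CM-RevDKO (filled, red) left of controls (open) and a line at each group mean. Cox7a1 lies at 2948 FPKM or above in libraries labelled CM-RevDKO and at 2349 FPKM or below in controls, and Cox6b2 at 1.53 FPKM or below in libraries labelled CM-RevDKO and at 3.01 FPKM or above in controls.

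The balance between forms was taken as a log2 ratio within each library, which no scaling by a single factor per library alters beyond the pseudocount, and 6 ratios were compared by an exact two-sided permutation test over 20 assignments, which cannot give a p below 0.1. The share of the heart form Cox7a1 in subunit 7a transcripts was 89.3%, 87.6% and 87.9% in libraries labelled CM-RevDKO, against 85.9%, 85.8% and 85.2% in controls. The log2 ratio of Cox7a1 to Cox7a2 was 2.92 ± 0.13 in libraries labelled CM-RevDKO and 2.57 ± 0.05 in controls (SD, n = 3 each), a difference of 0.34 (exact permutation p = 0.1, the smallest it allows, 0.3 adjusted over the 6 ratios). Its groups did not overlap, and the difference was between 0.27 and 0.39 with any 1 library left out. For Cox6a2 over Cox6a1 the difference was -0.14 (exact p = 0.4), with 91.7%, 90.8% and 93.0% heart form in libraries labelled CM-RevDKO and 92.7%, 92.8% and 92.4% in controls. For Cox8b over Cox8a it was 0.18 (exact p = 0.2), with a heart form share of 89.4% ± 0.891 in libraries labelled CM-RevDKO, against 88.2% ± 0.370 in controls. Cox4i2 over Cox4i1 differed by -0.12 (exact p = 0.6), with overlapping groups. In subunits 6a, 7a and 8 the heart form thus made up most of the pair in every library, and the 3 differences did not share 1 sign.

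**Figure D4:**
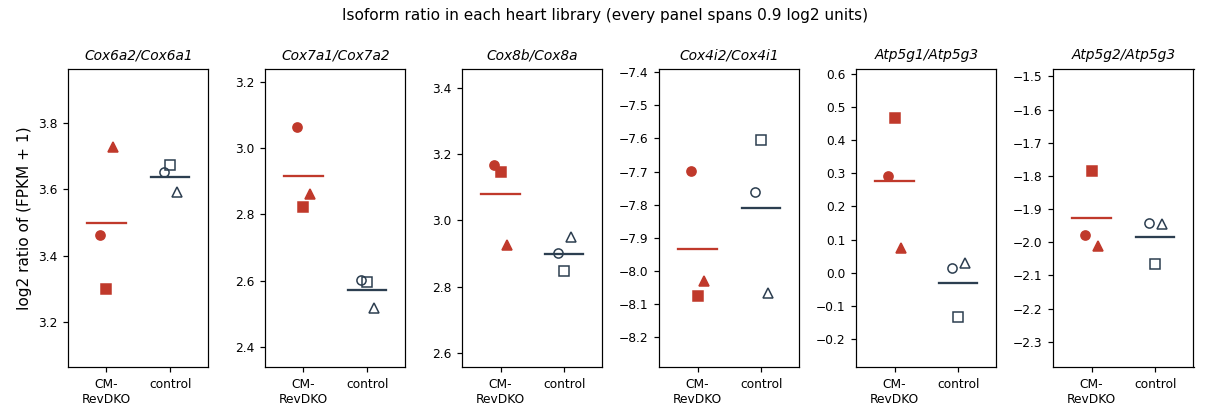
Log2 ratio of FPKM + 1 between forms in each library, with libraries labelled CM-RevDKO left of controls, lines at the means and the same span of 0.9 log2 units in each panel. Cox7a1/Cox7a2 (means 2.92 and 2.57) and Atp5g1/Atp5g3 (0.28 and -0.03) do not overlap between groups, and the other 4 ratios do.

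In complex V no gene passed the test; 14 of 15 had a positive change and the median was 0.12. With quantile normalization 8 of 15 were positive, and scaled without the mitochondrially encoded genes 11 were. By place in the enzyme, the median was 0.02 for the F1 head, 0.07 for the central stalk, 0.13 for the peripheral stalk, 0.22 for the c ring and 0.12 for the small membrane subunits. The c ring and the small membrane subunits kept a positive median under each of the 3 other scalings, and the F1 head had a negative one under each of them. Atp5b, the catalytic subunit of the head, averaged 2085 ± 158 FPKM in libraries labelled CM-RevDKO and 2034 ± 63.7 FPKM in controls, and Atp5a1, its partner, 1178 ± 37.1 FPKM in libraries labelled CM-RevDKO and 1172 ± 25.9 FPKM in controls (SD, n = 3 each). Atp5c1, the central shaft, averaged 891 ± 45.4 FPKM in libraries labelled CM-RevDKO and 850 ± 21.96 FPKM in controls. Differences in these head and shaft genes were smaller than the spread between libraries labelled CM-RevDKO.

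The c ring showed larger differences. Atp5g1 (chromosome 11, 96072793 to 96075694) had 1960, 1925 and 1499 FPKM in libraries labelled CM-RevDKO, against 1265, 1289 and 1317 FPKM in controls, or 0.47 log2 units more (SE 0.12, adjusted p = 0.0982). All 3 libraries labelled CM-RevDKO lay above the controls, and CM-RevDKO 3 was by far the closest; without that library Atp5g1 passed the test (adjusted p = 0.0170), as did Atp5e (adjusted p = 0.0446), the small stalk subunit, which was singled out after its values were seen. Atp5g2 had 405, 403 and 352 FPKM, against 325, 337 and 334 FPKM in controls (0.22, SE 0.09, adjusted p = 0.278). Atp5g3 had 1601, 1393 and 1424 FPKM, against 1253, 1415 and 1289 FPKM in controls (0.16, SE 0.09, adjusted p = 0.454), and its groups overlapped. The log2 ratio of Atp5g1 to Atp5g3 was 0.28 ± 0.20 in libraries labelled CM-RevDKO and -0.03 ± 0.09 in controls (SD, n = 3 each), a difference of 0.31 without overlap (exact permutation p = 0.1, 0.3 adjusted). Atp5g1 thus made up 49.0% ± 3.00 of c subunit transcripts in libraries labelled CM-RevDKO and 43.9% ± 1.31 in controls, and Atp5g3 40.4% ± 3.02 in libraries labelled CM-RevDKO and 44.8% ± 1.49 in controls (SD, n = 3 each). Atp5g2 over Atp5g3 differed by 0.06 (exact p = 0.6).

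Atp5k, the e subunit that helps ATP synthase form dimers (chromosome 5, 108433246 to 108434399), had the largest positive difference of the 49 on the log2(FPKM + 1) scale, just above the low pseudogene Atp5l-ps1, which exceeds it with a pseudocount of 0.1 (1.02 for Atp5l-ps1 and 0.65 for Atp5k). It stood at 1369, 995 and 921 FPKM in libraries labelled CM-RevDKO, against 552, 761 and 766 FPKM in controls, or 0.65 log2 units more (SE 0.19, adjusted p = 0.134). The groups did not overlap, and both were widely spread, control 1 being the lowest and CM-RevDKO 1 the highest. The other small membrane subunits, Atp5j2 and Atp5l, were at 0.12 each. In the peripheral stalk Atp5h, Atp5o, Atp5f1 and Atp5j had log2 fold changes of 0.21, 0.16, 0.09 and 0.07, and of these Atp5o alone, at 980 ± 50.3 FPKM in libraries labelled CM-RevDKO and 877 ± 19.3 FPKM in controls (SD, n = 3 each), did not overlap; Atp5o, Atp5f1 and Atp5j were negative with quantile normalization. Atp5d, in the central stalk, was at -0.04; it overlaps Cbarp, as Atp5j overlaps Gabpa, and such reads cannot be told apart without strand. Of the 5 members that are no subunits, Atp5s had 7.86, 8.36 and 8.58 FPKM, against 9.71, 9.60 and 9.78 FPKM in controls (-0.21, SE 0.09, adjusted p = 0.297). The pseudogene Atp5l-ps1 had 3.59, 1.11 and 1.57 FPKM, against 0.731, 1.03 and 0.845 FPKM in controls (0.65, SE 0.28, adjusted p = 0.309), and its reads can be shared with Atp5l. Cox4nb, Atp5sl and Atp5l2 were at 0.11, -0.09 and 0.51, each with overlapping groups.

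Summed over their subunit genes as deposited, complexes III, IV and V were above the controls in every library labelled CM-RevDKO and complex II was not; scaled without the mitochondrially encoded genes this held for complex IV alone. Complex III summed to 6248, 6220 and 5918 FPKM in libraries labelled CM-RevDKO, against 4977, 5476 and 5410 FPKM in controls, 1.16 times the control mean. Complex IV summed to 20995, 18870 and 18305 FPKM, against 14948, 16367 and 16173 FPKM in controls (1.22 times), and complex V to 15909, 15968 and 14206 FPKM, against 13412, 13484 and 13547 FPKM in controls (1.14 times). Each of these had the smallest exact permutation p that 3 against 3 libraries allow, 0.1 (0.133 adjusted over the 4 sums). Scaled without the mitochondrially encoded genes, the difference was 574 FPKM for complex III (exact p = 0.2), against 841 FPKM as deposited, and 1211 FPKM for complex V (exact p = 0.4), against 1880 FPKM as deposited. Complex II summed to 1401 ± 25.9 FPKM in libraries labelled CM-RevDKO and 1382 ± 12.3 FPKM in controls (SD, n = 3 each; exact p = 0.4), and this small difference was negative when scaled without the mitochondrially encoded genes. The 44 subunit genes together held 10.2%, 10.2% and 8.86% of the FPKM that is not mitochondrially encoded in libraries labelled CM-RevDKO 1, 2 and 3, against 8.52%, 8.65% and 8.95% in controls. On that measure CM-RevDKO 3 lay inside the control range.

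**Figure D5:**
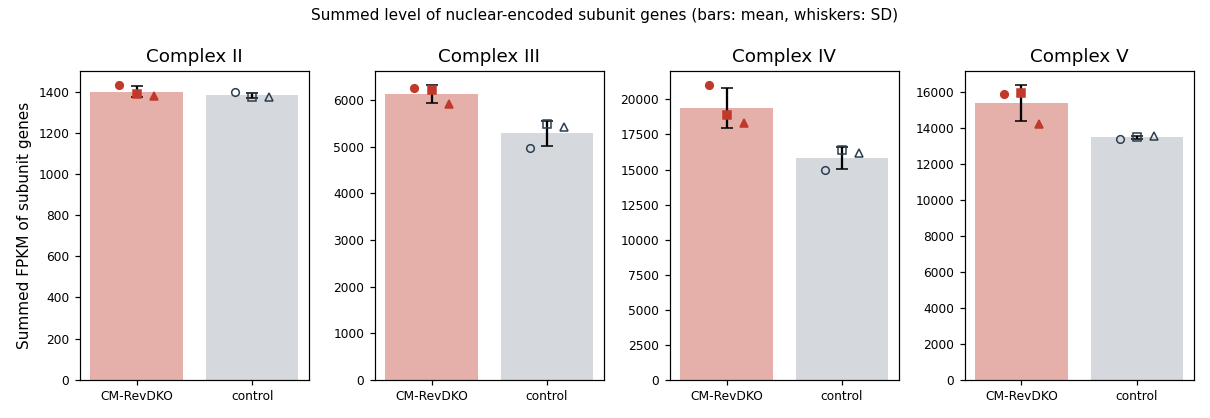
Summed FPKM of the nuclear subunit genes of each complex, with bars at the mean, whiskers of 1 SD and a symbol per library (3 labelled CM-RevDKO, left, and 3 controls, right). The means, CM-RevDKO then control, are 1401 and 1382 FPKM for complex II, 6128 and 5288 for III, 19390 and 15829 for IV, and 15361 and 13481 for V.

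The same libraries differ in transcripts listed as markers of other cells. The 4 tested atrial markers of 6, whose sums are given above, all had positive fold changes, with a median of 1.44. Bmp10, which fell below the filter and was not tested, was listed at 0 in every library but CM-RevDKO 1. The 5 tested white adipocyte markers of 6 were all positive, with a median log2 fold change of 1.16, that of Retn. They summed to 1093, 800 and 591 FPKM in libraries labelled CM-RevDKO, against 820, 755 and 695 FPKM in controls, mostly from Fabp4. The more specific Adipoq stood at 6.96, 4.88 and 1.35 FPKM, against 1.06, 1.05 and 1.05 FPKM in controls, without overlap. Every gene in the deposited table reached 1.00 FPKM in at least 1 library. Retn and Plin1 did so in CM-RevDKO 1 and 2 alone and Tnni2, a skeletal muscle marker, in CM-RevDKO 1 and 3 alone. Bmp10 and Fgf12, neither of them tested, did so in CM-RevDKO 1 alone. The listing of these genes favoured a positive sign. In the same way Cpn2, a brown adipocyte marker, reached 1.00 FPKM in controls alone, which favoured a negative sign. So did Sco2, a complex IV assembly factor, in controls 1 and 3 alone. The 5 tested red blood cell markers of 7 summed to 11003, 8867 and 8703 FPKM, against 6274, 9005 and 5010 FPKM in controls, where control 2 lay within the CM-RevDKO range. Skeletal muscle, which uses the same heart forms, had 1 tested marker of 8, summing to at most 1.65 FPKM in any library. The 3 tested brown adipocyte markers of 6 were all negative, with a median of -0.26, that of Cpn2, and Pank1 was called lower (limma adjusted p = 0.0234). Of 8 pericyte and smooth muscle markers 5 were positive, with a median of 0.03. Acta2 was higher without overlap (0.69, limma adjusted p = 0.103), and Abcc9 was called lower (-0.68, limma adjusted p = 0.0113). The list thus held genes on both sides, and no change of these cells is read from it. Endothelial, fibroblast and macrophage markers had 5, 4 and 5 of 6 tested genes positive, with medians of 0.11, 0.12 and 0.08. The part of these other cells in the members' values was not tested.

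Among 49 tested genes of 6 other lists of the same complexes, 3 were called (6.12%, where 2.5% of all genes were). Of 18 tested complex IV assembly factors, 13 were positive and Cox19, a copper-handling assembly protein, rose: it had 18.9, 17.2 and 23.8 FPKM in libraries labelled CM-RevDKO, against 10.0, 10.3 and 13.2 FPKM in controls (0.78, SE 0.15, adjusted p = 0.0469). Of 6 tested genes listed as complex V assembly factors, inhibitor and small proteins, 5 were positive and 2010107E04Rik rose. RefSeq names it Atp5mpl, a small ATP synthase subunit that the symbol rule leaves out, and it had 942, 1072 and 941 FPKM, against 667, 673 and 751 FPKM in controls (0.50, SE 0.09, adjusted p = 0.0424). Usmg5 of the same list, named Atp5md by RefSeq, is also left out by the rule. It averaged 1796 FPKM in libraries labelled CM-RevDKO and 1479 FPKM in controls, without overlap (0.28, limma adjusted p = 0.163). Among 11 tested genes listed as electron carriers (coenzyme Q genes, Cycs for cytochrome c, and Etfa, Etfb and Etfdh), 5 were positive. Coq10a, a coenzyme Q binding protein, fell, with 38.3, 37.1 and 38.6 FPKM in libraries labelled CM-RevDKO, against 48.6, 55.3 and 52.8 FPKM in controls (-0.45, SE 0.09, adjusted p = 0.0462). In that list 2 genes (18.2%) were higher without overlap, among them Cycs (0.38, limma adjusted p = 0.151), where 12.6% of all genes were. Another 2 (18.2%) were lower without overlap, where 10.5% of all genes were. The groups did not overlap for the 3 called genes. Each call ended with any 1 of the 6 libraries left out (adjusted p of 0.0649 to 0.161 for Cox19, 0.0562 to 0.162 for 2010107E04Rik and 0.0799 to 0.155 for Coq10a). Those of Cox19 and 2010107E04Rik also ended under each of the 3 other scalings, and that of Coq10a with median of ratios scaling.

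No gene of the remaining lists of these complexes passed the test. Of 4 tested complex II assembly factors 3 were positive, with Sdhaf1 at 27.2, 24.0 and 21.97 FPKM in libraries labelled CM-RevDKO and 18.2, 17.9 and 21.0 FPKM in controls (0.34, adjusted p = 0.189), and 1110058L19Rik at 46.5, 44.1 and 42.1 FPKM against 31.4, 37.1 and 43.4 FPKM in controls (0.25, adjusted p = 0.373). Of 4 tested complex III assembly factors 3 were positive, with Uqcc at 50.8, 41.2 and 49.6 FPKM against 37.1, 40.7 and 46.4 FPKM in controls (0.18, adjusted p = 0.506), and Ttc19 at 9.72, 12.1 and 12.0 FPKM against 11.3, 11.6 and 12.2 FPKM in controls (-0.05, adjusted p = 0.870). Of the 6 mitochondrially encoded subunits of these complexes, 2 were positive (4 with quantile normalization, which sets mt-Co1 to 0). mt-Atp8 had 18989, 19303 and 9769 FPKM in libraries labelled CM-RevDKO, against 8032, 9148 and 9375 FPKM in controls (0.79, SE 0.25, adjusted p = 0.175), and mt-Cytb 34505, 32172 and 25220 FPKM, against 22900, 24876 and 25494 FPKM in controls (0.32, SE 0.13, adjusted p = 0.290). Libraries CM-RevDKO 1 and 2 were far above the rest in both, and CM-RevDKO 3 was near the controls; without CM-RevDKO 3 both passed the test (adjusted p = 0.00639 and 0.0476). mt-Co1 and mt-Co3, catalytic core and partner subunit of complex IV, had lower values without overlap in libraries labelled CM-RevDKO, with log2 fold changes of -0.19 each (adjusted p = 0.372 and 0.342). mt-Co2, the third mitochondrially encoded subunit of complex IV, was at -0.05. Unlike mt-Atp8, mt-Atp6 of complex V had a negative change, with overlapping groups (-0.10, limma adjusted p = 0.648). Its level was 4268, 4332 and 4901 FPKM in libraries labelled CM-RevDKO and 4577, 4738 and 5164 FPKM in controls, below that of mt-Atp8 in every library. With quantile normalization mt-Co3 was at -0.11, mt-Co2 at 0.04 and mt-Atp6 at 0.06. The top rank in every library is held by mt-Co1, which that normalization makes equal by construction.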

How the data were processed

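The authors deposited a table with 1 value per gene and library, which was read as FPKM; its header names no unit, and TPM, which differs by a single factor per library, is possible. The submitters' processing notes name HISAT2, StringTie and mm10 without versions, and neither annotation nor strand setting is given in the sources used here. Here log2(FPKM + 1) was fitted for 13256 genes averaging 0.5 or more by limma 3.58.1 in R 4.3.3 (intensity trend, group as the only term, two-sided, Benjamini-Hochberg, threshold 0.05), and this scale understates the fold changes of low genes. The script was tested on simulated data. Isoform ratios and sums were compared by exact permutation over libraries. Depth is unknown, no 2 libraries were identical, and p-values reflect only how these samples vary, which may be technical variation. Promoters and coordinates are RefSeq, GRCm38.p6, where all 49 symbols matched.

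The members and lists were chosen with earlier results of these data known. Values per library were given for isoform genes, called members, the 3 smallest p per complex, the 3 largest rises and falls, and called genes of other lists, or else the 2 with the smallest p. Cox7b, Atp5e, Usmg5, Cycs, Sco2, mt-Co1, mt-Co2, mt-Co3, mt-Atp6, the cell type markers named singly and mmu-mir-689-2 were named after their values were seen. Alternatives were another pseudocount, filters, scalings, a replicate block and left-out libraries. The other 24 samples of the 30 were not analysed here.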

Additional observations from a re-analysis of the deposited data

How the results depend on the processing

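With 3 libraries a group and unknown depth, small differences are hard to call. The 332 calls over all genes became 115 with replicate number as a block, 127 without both control 2 and CM-RevDKO 1, 28 for CM-RevDKO 3 alone against the controls, and 114 to 323 with 1 library left out. Members called higher numbered 0, and 0 to 2 with 1 library left out (2 without CM-RevDKO 3). The 1 member called lower, Cox6b2, became 0 with each library left out, with a mean of at least 5 (where it is not tested), under the block, without both libraries and for CM-RevDKO 3 alone. Same-numbered libraries had deviations correlated at -0.037, -0.064 and 0.093. Not every library correlated best with its own number, though CM-RevDKO 3 and control 3 did. With 3 libraries a group these values cannot tell whether same-numbered libraries were paired or handled together. The median of members, 0.16, was 0.089 scaled without mitochondrially encoded genes, 0.058 with quantile normalization and 0.10 for CM-RevDKO 3 alone. The 3 calls among assembly factors, carriers and mitochondrially encoded partners became 1 scaled without mitochondrially encoded genes, 1 with quantile normalization and 1 under the block, 0 with median of ratios scaling, without both libraries and for CM-RevDKO 3 alone, and 0 to 3 with 1 library left out. The complex II sum difference of 18.8 FPKM was -48.0 scaled without mitochondrially encoded genes, -4.76 with median of ratios scaling and -0.788 for CM-RevDKO 3 alone; that of complex V, 1880 FPKM, was 1211 scaled without mitochondrially encoded genes and 725 for CM-RevDKO 3 alone. The Atp5g2/Atp5g3 ratio difference was -0.011 without CM-RevDKO 2 and -0.028 for CM-RevDKO 3 alone, which also turned Cox6a2/Cox6a1 to 0.090. Of single genes, Cox4i2 turned negative scaled without mitochondrially encoded genes (-0.047), with quantile normalization (-0.0056), median of ratios (-0.0073), without CM-RevDKO 1 (-0.11), without control 3 (-0.15) and for CM-RevDKO 3 alone (-0.18), and Atp5g3 with quantile normalization (-0.0092). With 1 library left out Sdhb was between -0.048 and 0.033, positive without CM-RevDKO 2, control 1 (0.0092) or control 2 (0.00056), and for CM-RevDKO 3 alone (0.0045), and Ttc19 between -0.10 and 0.045, positive without CM-RevDKO 1, without both libraries (0.040) and for CM-RevDKO 3 alone (0.040). The cause of these changes was not tested.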
